A study of Mus musculus with 2 samples.

Results

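The cytochrome P450 genes were examined in RNA-seq of whole mouse kidney. They were taken as every gene in the deposited table whose symbol begins with Cyp and a digit, leaving out Cyp27b1, Cyp24a1 and Cyp51. This gave 51 of 20002 genes, of which 22 belonged to the Cyp2 family, 17 to the Cyp4 family and 12 to other families. By RefSeq, 4 of the 51 are pseudogenes (Cyp2a21-ps, Cyp2j7, Cyp4b1-ps2 and Cyp4f41-ps). The study compared C57BL/6J mice in which Regnase-2 (Reg-2), an RNase that degrades mRNA, was targeted in the proximal tubule with control mice. There was 1 library of control kidney and 1 of Reg-2 CKO kidney, and neither group had a treatment beyond the vector. The Reg-2 CKO mice received AAV9 carrying shRNA against Reg-2 through the tail vein at 11 weeks of age, so the label CKO stands for a knockdown and not for a floxed allele. The methods describe the AAV9 of the control mice as empty in one place and as carrying control shRNA in another. They place the RNA-seq at 14 weeks in one section and give a harvest at 16 weeks in another. The sources used here give neither the sex of these mice nor whether a library was made from 1 mouse or a pool. AAV9 reaches the proximal tubule preferentially by the methods, but the RNA came from all cells of the kidney, in which fewer cells of a type and less RNA per cell cannot be told apart.

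Cytochrome P450 enzymes are heme proteins that use molecular oxygen to oxidize a substrate, with electrons passed on by Por and cytochrome b5 in the endoplasmic reticulum or by ferredoxin in mitochondria. In the kidney they are most abundant in the proximal tubule. Cyp4 enzymes hydroxylate fatty acids at or near the omega end and make 20-HETE from arachidonic acid, Cyp2c and Cyp2j enzymes make epoxides from the same fatty acid, and many other Cyp2 enzymes act on drugs, toxins and steroids. Several are expressed more in the kidneys of male mice than of female mice.

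After a constant was taken off each column, the control library held 38851231 reads and the Reg-2 CKO library 43588721. CKO reads were multiplied by 0.667, the median gene ratio of control to CKO, before ratios were taken. A log2 ratio is that of CKO over control with 1 read added to both, whereas folds have no read added. Intervals are 95% Clopper-Pearson intervals and cover counting error only. With 1 library per group no difference has a replicate check, and no test between the groups could be made. A gene was said to rise or fall where its ratio with the read added differed at least 2-fold. Of the 51 genes, 49 had at least 10 scaled reads in 1 library and were kept. Cyp4f41-ps, with 8 control and 7 CKO reads, and Cyp11a1, which starts steroid synthesis, with 4 and 10, were not. Zc3h12b, the Reg-2 gene, had 47 control and 59 CKO reads. Its log2 ratio was -0.25 (interval -0.83 to 0.33), and turned to 0.16 with equal library totals and 0.42 with the values as deposited. By counting error the interval held 0 and did not reach a 2-fold fall. A lower target mRNA was thus not shown, and the target does not check the labels. The paper reports lower Reg-2 in these mice by immunofluorescence staining.

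The cytochrome P450 reads as a whole made up 1.11% of the control library (Wilson 95% interval 1.11% to 1.12%) and 0.505% of the Reg-2 CKO library (0.503% to 0.507%). After scaling, their sum was 2.95-fold lower in the Reg-2 CKO kidney, while the sum of all genes was 1.34-fold lower. The typical cytochrome P450 gene did not share the 2.95-fold fall. The median log2 ratio of the 49 genes was -0.14, beside 0.02 for all 17469 genes kept. With the library totals made equal, the median of the 49 turned to 0.27. Among the 49 genes, 15 fell and 7 rose. Of all genes kept, 5.35% were at least 2-fold lower and 13.4% at least 2-fold higher. With equal library totals the split of the 49 genes was 11 lower and 12 higher, beside 437 lower and 3870 higher of all 17682 genes kept. With the values as deposited, 9 of 51 genes were lower and 11 higher, beside 131 lower and 3574 higher of 20002 genes. By counting error alone, the interval lay below 0 for 23 genes, above 0 for 16, and held 0 for 10.

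**Figure D1:**
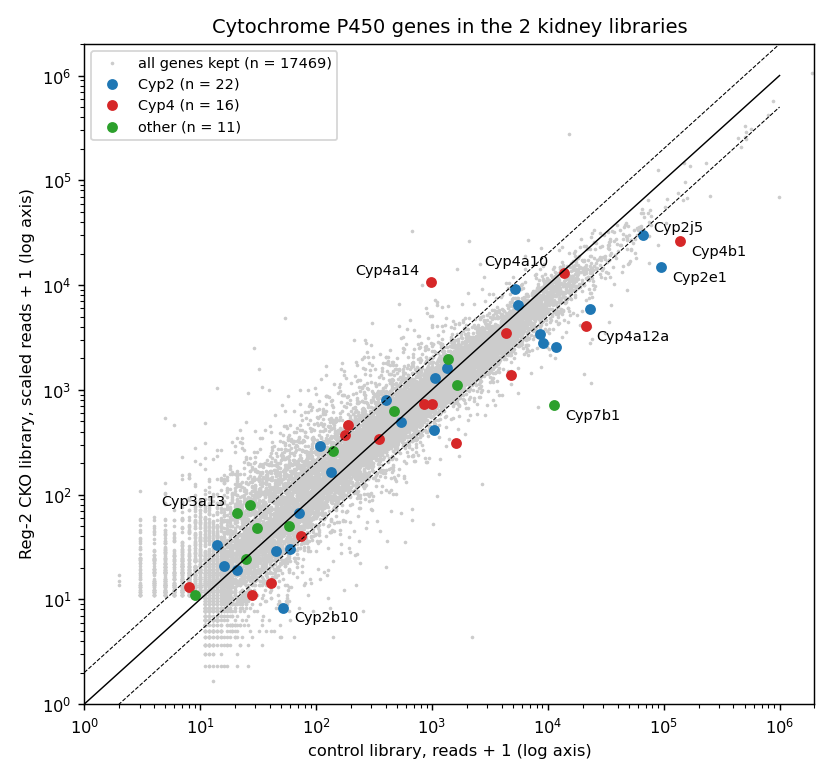
Reads plus 1 of each gene in the control library (x) against scaled reads plus 1 in the Reg-2 CKO library (y), on log axes, for 17469 genes (grey) and the 49 cytochrome P450 genes by family. The solid line marks equality and the dashed lines 2-fold, and Cyp4b1, Cyp2e1 and Cyp7b1 lie below the lower dashed line while Cyp4a14 lies above the upper one.

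The sum was set by few genes. Cyp4b1, which hydroxylates fatty acids and activates several lung toxins, had 138282 control reads and 39074 CKO reads and alone held 32.0% of the cytochrome P450 reads of the control library. It fell 5.31-fold, with a log2 ratio of -2.41 (interval -2.42 to -2.39). Cyp2e1, which oxidizes ethanol and acetaminophen, had 95086 and 22185 reads and fell 6.43-fold, to a log2 ratio of -2.68 (-2.71 to -2.66). Cyp2j5, an arachidonic acid epoxygenase of the proximal tubule, had 66151 and 44791 reads and fell 2.22-fold, to -1.15 (-1.16 to -1.13). These 3 genes held 69.3% of the control cytochrome P450 reads and 48.2% of those of the Reg-2 CKO library. Without Cyp4b1 the summed share was 0.757% for the control and 0.415% for CKO, and without all 3 it was 0.341% and 0.261%. The share was thus lower in the CKO library with and without them. In scaled reads, the gap narrowed from 2.95-fold for all 51 genes to 1.75-fold without these 3. For all 20002 genes it was 1.34-fold.

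The order of the genes by level shifted as well. By reads per kilobase of the longest annotated transcript, Cyp4b1 was first in both libraries, with 73088 there in control kidney and, after scaling, 13768 in CKO kidney. Cyp2e1 went from rank 2 to 3 and Cyp2j5 from rank 3 to 2. Cyp4a14 moved from rank 19 to 6, with 391 and 4276 reads per kilobase, and Cyp2a5 from rank 13 to 5, with 2607 and 4545. Cyp7b1 moved the other way, from rank 7 to 22, with 5258 and 330.

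**Figure D2:**
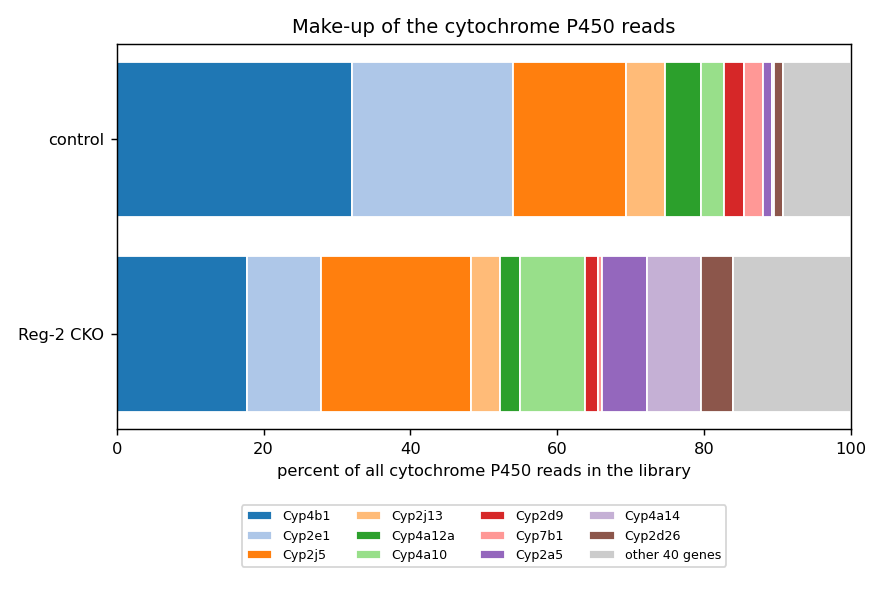
Share of each library's cytochrome P450 reads, in percent, taken by 11 genes and by the other 40 together. Cyp4b1, Cyp2e1 and Cyp2j5 fill 69.3% of the control bar and 48.2% of the Reg-2 CKO bar, where Cyp4a10, Cyp4a14 and Cyp2a5 take more room.

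Most of the loss lay in 8 genes listed as male-biased in mouse kidney: Cyp2d9, Cyp2e1, Cyp2j5, Cyp2j13, Cyp4a12a, Cyp4a12b, Cyp4b1 and Cyp7b1. All 8 fell, with log2 ratios from -3.99 to -1.15 and a median of -2.30. Their reads summed to 371584 for the control and 127900 for CKO, 4.36-fold lower after scaling, and they held 86.0% of the control cytochrome P450 reads. The other 43 genes summed to 60611 and 92058 reads, which left a log2 ratio of 0.02 between the sums after scaling. As shares of the library these were 0.156% for the control and 0.211% for CKO, so the balance depends on the scaling. Cyp4a14 alone gave 976 and 16009 of these reads. Of those 43, 41 were kept, with a median of -0.04. Of the 41, 7 rose and 7 fell, beside 13.4% and 5.35% of all genes kept. The list was written with earlier results on male-biased genes in these libraries known, so its direction is not independent evidence. With equal library totals 7 of the 8 were still at least 2-fold lower, and Cyp2j5 was at -0.73.

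Read level moved with this result. Genes with many reads tended to be lower in the Reg-2 CKO library. Among 432 genes with a mean of at least 10000 scaled reads the median log2 ratio was -0.59 and 18.1% were at least 2-fold lower and 1.62% higher. The 6 cytochrome P450 genes at that level had a median of -2.18, and 5 of them fell, Cyp4a10 being the exception. Among 5512 genes with a mean of 1000 to under 10000 scaled reads, the median was -0.15, with 3.99% lower and 2.92% higher. The 13 cytochrome P450 genes there had a median of -0.34, and 5 fell and 1 rose. Below a mean of 1000 scaled reads, 30 kept genes had a median of -0.04, with 5 lower and 6 higher, beside a median of 0.17 for all genes at that level, of which 5.52% were lower and 18.8% higher. The part of read level in these differences was not tested.

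**Figure D3:**
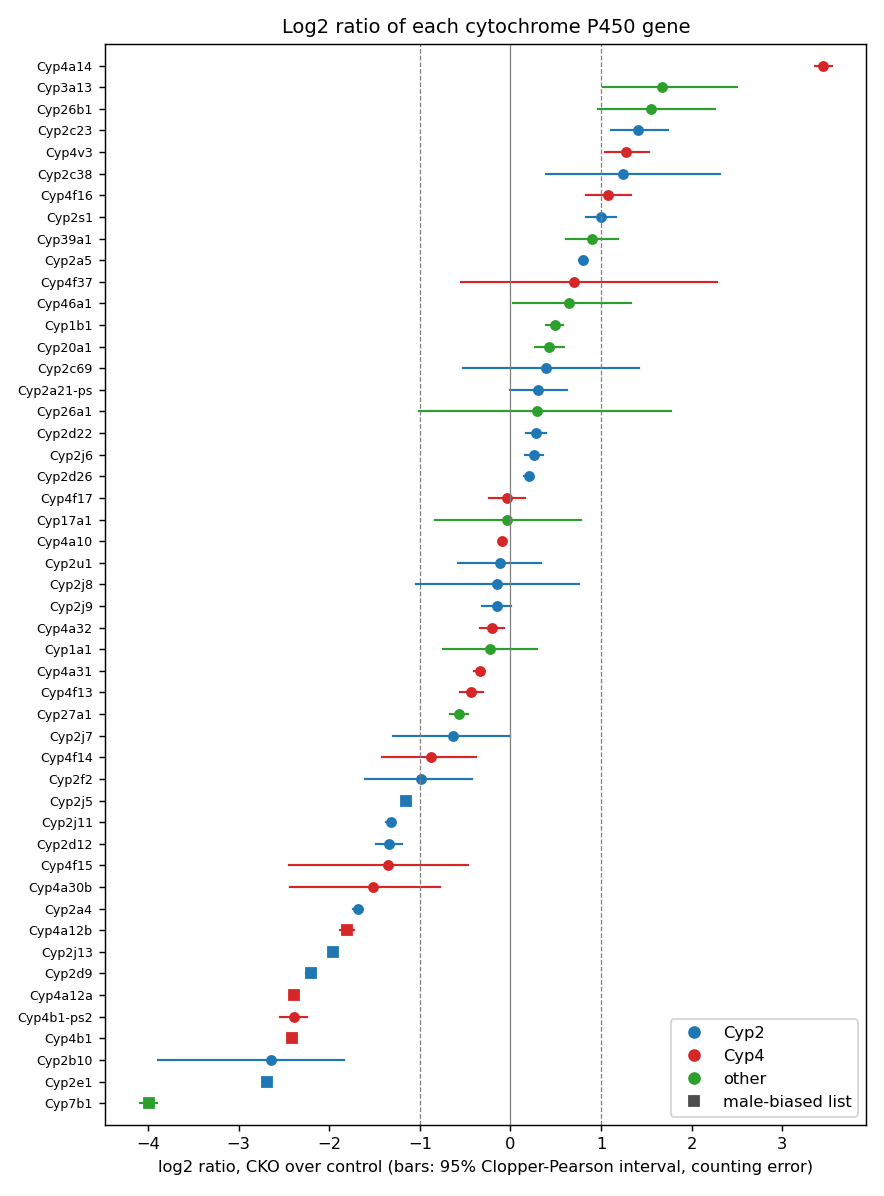
Log2 ratio of CKO over control for the 49 kept genes, sorted, with 95% Clopper-Pearson intervals for counting error; colour gives the family, squares the male-biased list and dashed lines 2-fold. The 8 squares lie between -3.99 and -1.15, and Cyp4a14 stands alone at 3.45.

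In the Cyp4 family, whose 16 kept genes had a median of -0.39, 6 genes fell and 3 rose. Of all genes kept, 5.35% fell and 13.4% rose. The Cyp4 median turned to 0.03 with equal library totals. The family summed to 0.483% of the control and 0.212% of the Reg-2 CKO library. Cyp4a12a, the main 20-HETE synthase of the male mouse kidney, had 21186 control and 6054 CKO reads and fell to a log2 ratio of -2.39 (interval -2.43 to -2.35). Its near-copy Cyp4a12b had 4824 and 2072 reads and fell to -1.80. Cyp4a14, a fatty acid omega-hydroxylase known as a target of Ppara, went the other way. It had 976 control and 16009 CKO reads and rose 10.9-fold, to a log2 ratio of 3.45 (3.36 to 3.55). Cyp4a10, which shares that role and that receptor, had 13797 and 19428 reads, for a log2 ratio of -0.09 (-0.12 to -0.06), a sign that turned with equal library totals, at 0.33. The 7 Cyp4a genes together held nearly the same share of each library, 0.119% and 0.114%. In scaled reads their sum was 1.38-fold lower in CKO, beside 1.34-fold lower for all genes. Cyp4a14 went from 0.23% to 7.28% of all cytochrome P450 reads.

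The remaining Cyp4 genes had fewer reads. The pseudogene Cyp4b1-ps2 had 1628 and 464 reads and fell to -2.39, a value next to that of Cyp4b1. Cyp4a30b, with 40 and 20 reads, and Cyp4f15, with 27 and 15, fell to -1.52 and -1.35. With the values as deposited Cyp4a30b was at -0.079 and Cyp4f15 turned to 0.09, and with equal library totals Cyp4f15 was at -0.96. Cyp4v3, related to the human enzyme lost in Bietti crystalline dystrophy, had 188 and 686 reads and rose to 1.28 (1.05 to 1.52). Cyp4f16 had 177 and 560 reads and rose to 1.07, although its interval of 0.83 to 1.33 reached below 2-fold. Cyp4f14, which inactivates leukotriene B4, had 73 and 59 reads, for a log2 ratio of -0.88. Of 15 kept genes listed as omega-hydroxylases, 5 fell and 3 rose, beside 5.35% and 13.4% of all genes kept. The median of the 15 was -0.34 and turned to 0.08 with equal library totals.

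In the Cyp2 family, 8 of 22 genes fell and 2 rose, beside 5.35% and 13.4% of all genes kept. The Cyp2 median was -0.15, which turned to 0.26 with equal library totals. The family summed to 0.590% of the control and 0.276% of the Reg-2 CKO library. Besides Cyp2e1 and Cyp2j5, the abundant genes that fell were Cyp2j13, Cyp2d9, Cyp2a4 and Cyp2j11. Cyp2j13, a kidney member of the epoxygenase subfamily, had 22983 and 8846 reads and fell to -1.96. Cyp2d9, which hydroxylates testosterone, had 11684 and 3807 reads and fell to -2.20. Cyp2j11 had 8598 and 5166 reads and fell to -1.32. Cyp2d12 had 1040 and 617 reads and fell to -1.34, and Cyp2b10, the classical phenobarbital-induced gene, had 51 and 11 and fell to -2.64 (-3.89 to -1.84). With equal library totals Cyp2d12, Cyp2j11 and Cyp2j5 no longer passed 2-fold, at -0.92, -0.90 and -0.73, and with the values as deposited they were at -0.69, -0.73 and -0.56 and Cyp2b10 at -0.47. The genes that rose were Cyp2c23, an arachidonic acid epoxygenase, with 108 and 433 reads, for a log2 ratio of 1.41 (1.11 to 1.74), and Cyp2c38, with 13 and 48 reads and 1.24 (0.39 to 2.31). Just outside the threshold were Cyp2s1, with 398 and 1192 reads and a value of 0.996 (0.83 to 1.16), and Cyp2f2, with 59 and 44 reads and -0.98. With no read added, Cyp2f2 was 2.01-fold lower.

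Among the 10 kept genes on the list of Cyp2c and Cyp2j epoxygenases, which includes the pseudogene Cyp2j7, 3 fell and 2 rose. Of all genes kept, 5.35% fell and 13.4% rose. The median of the 10 was -0.15 and turned to 0.26 with equal library totals. The 3 that fell were Cyp2j genes and the 2 that rose were Cyp2c genes with far fewer reads. The 7 Cyp2j genes summed to 99689 control and 62025 CKO reads. Of 12 kept genes on the list for drug and toxin metabolism, 5 fell (Cyp2a4, Cyp2b10, Cyp2d9, Cyp2d12 and Cyp2e1) and Cyp3a13 rose. The median of these 12 was -0.60, was -0.19 with equal library totals, and turned to 0.22 with the values as deposited. Cyp3a13 had 20 control and 99 CKO reads, a log2 ratio of 1.67 (1.02 to 2.49).

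In the other families the 11 kept genes had a median of 0.43, and 1 fell and 2 rose, beside 5.35% and 13.4% of all genes kept. The gene that fell was Cyp7b1, the oxysterol 7-alpha-hydroxylase (Gene ID 13123, chr3:18071944-18243890 in GRCm38). It had 11388 control and 1071 CKO reads and fell 15.9-fold, to a log2 ratio of -3.99 (-4.09 to -3.90), the lowest of the 49 genes. The sum of these families was 0.0391% of control and 0.0170% of CKO reads, and Cyp7b1 gave 11388 of its 15189 control reads. The other genes of sterol and bile acid metabolism did not pass 2-fold. Cyp39a1, a 24-hydroxycholesterol 7-alpha-hydroxylase, had 139 and 389 reads, for a log2 ratio of 0.89 (0.62 to 1.19), and Cyp27a1, the sterol 27-hydroxylase, had 1635 and 1649 reads and -0.57. Cyp26b1, which clears retinoic acid, had 26 and 117 reads and rose to 1.55 (0.96 to 2.26), while Cyp26a1 had 8 and 15 reads and 0.29. Cyp1a1 and Cyp1b1, known targets of the aryl hydrocarbon receptor, had log2 ratios of -0.22 and 0.49.

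Many of these genes lie next to their relatives. With neighbours taken as members at most 1000000 bases apart, 37 of the 51 fell into 7 clusters, and 14 stood alone. A riser and a faller stood in the same cluster in 2 of the 7, the Cyp4 cluster of chromosome 4 and the Cyp4f cluster of chromosome 17. The Cyp4f case rests on Cyp4f16, at 1.07, and Cyp4f15, with 27 and 15 reads. Cyp4f15 turned to 0.09 with the values as deposited, and Cyp4f16 was at 0.96 with those values scaled by the median gene ratio. In the 349 kilobases of chr4:115299046-115647721 lie 9 of the Cyp4 genes examined here, of which 5 fell and 1 rose. Among these 9, Cyp4a14 (chr4:115486200-115496158), at 3.45, lies between Cyp4a30b, at -1.52, and Cyp4a10, at -0.09. The Cyp2j cluster on the same chromosome (chr4:96042660-96664171) ran from -1.96 for Cyp2j13 to 0.26 for Cyp2j6, with 3 of 7 lower. The 4 Cyp2d genes examined here, on chromosome 15, held 2 that fell and 2, Cyp2d22 and Cyp2d26, at 0.28 and 0.20.

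**Figure D4:**
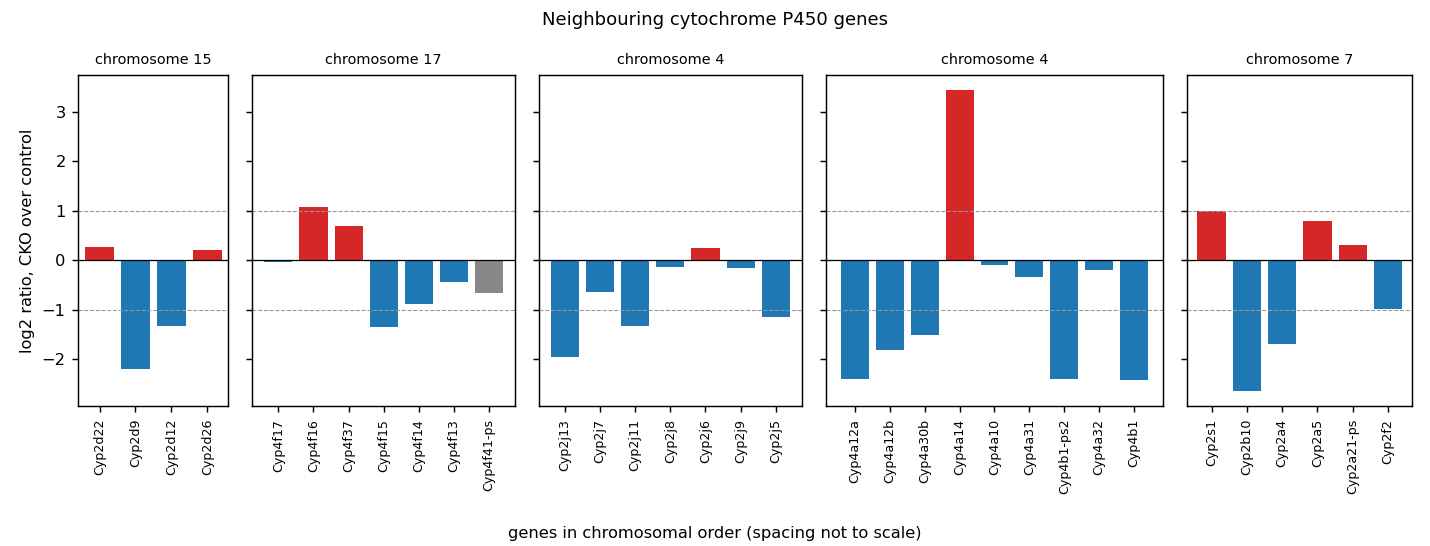
Log2 ratio of CKO over control for the genes of the 5 clusters with at least 4 cytochrome P450 genes, in chromosomal order (spacing not to scale; red above 0, blue below 0, grey a gene not kept, dashed lines 2-fold). In the Cyp4 cluster of chromosome 4, Cyp4a14 reaches 3.45 beside neighbours down to -2.41.

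Cyp2a4 and Cyp2a5 lie in a cluster on chromosome 7, and their start regions are printed because the transcripts differed in direction of their log2 ratios while the sequences are nearly the same. Cyp2a4, a testosterone 15-alpha-hydroxylase, had 9005 control and 4203 CKO reads and fell 3.21-fold, to a log2 ratio of -1.68 (-1.74 to -1.63). Cyp2a5, the coumarin 7-hydroxylase, had 5248 and 13723 reads, 1.74-fold higher, with a log2 ratio of 0.80 (0.76 to 0.85). The windows from 250 bases before to 50 after the start in RefSeq (GRCm38.p6, both on the plus strand, chr7:26306942-26307241 for Cyp2a4 and chr7:26835089-26835388 for Cyp2a5) were 97.7% identical over 301 aligned columns. Capitals mark the bases that differ or that stand opposite a gap.
Cyp2a4: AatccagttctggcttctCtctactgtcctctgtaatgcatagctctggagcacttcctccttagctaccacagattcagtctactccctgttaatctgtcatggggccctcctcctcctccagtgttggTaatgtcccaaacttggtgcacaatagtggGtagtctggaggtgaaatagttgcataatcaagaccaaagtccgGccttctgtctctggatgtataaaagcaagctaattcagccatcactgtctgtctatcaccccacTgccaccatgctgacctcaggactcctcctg
Cyp2a5: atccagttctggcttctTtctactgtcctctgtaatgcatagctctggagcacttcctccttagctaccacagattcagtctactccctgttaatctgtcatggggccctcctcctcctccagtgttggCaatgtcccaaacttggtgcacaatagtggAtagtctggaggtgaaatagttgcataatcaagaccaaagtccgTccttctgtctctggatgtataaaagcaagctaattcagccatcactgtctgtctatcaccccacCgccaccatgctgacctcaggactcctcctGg
The sequences differed at 5 substitutions and 2 gap columns. Both held TATAAA, starting 28 bases before the start in Cyp2a4 and 29 in Cyp2a5.

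Read sharing limits the values of such copies. The best local alignment of the Cyp2a4 and Cyp2a5 transcripts was 98.2% identical. Of the 100-base windows of the Cyp2a5 transcript, 14.4% occur without a mismatch in another gene, and for Cyp2a4 the share was 11.2%. How the counting treated reads that fit both genes is not given in the sources used here, so the 2 values are uncertain to that extent. The same holds for Cyp4a12a and Cyp4a12b, with 35.8% and 36.2% of windows shared, for Cyp4a32 and Cyp4a10, with 20.1% and 12.7%, for Cyp4b1-ps2 with 15.8% and for Cyp2c69 with 36.3%. In all, 9 of the 51 genes shared at least 10% of their windows and 28 shared none, Cyp4a14 among the latter.

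Of the 51 genes, 34 had a promoter window of that length in the RefSeq table. TATAAA, searched on both strands, was in 12 of the 34 (35.3%), beside 15.7% of 27025 genes. It was in 4 of the 10 windows of genes that fell (Cyp2a4, Cyp2d9, Cyp2e1 and Cyp2j5) and in 2 of the 5 of genes that rose. A match of these letters in a short window marks no binding.

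In sum the partners of the cytochrome P450 enzymes were lower by less, 1.70-fold after scaling. That compares with 2.95-fold for the cytochrome P450 genes and 1.34-fold for all genes. By median the partners were lower by more, at -0.37 beside -0.14 for the 49 cytochrome P450 genes. Of 12 genes for electron transfer and heme, 12 had log2 ratios below 0, with a median of -0.37, but the median was 0.05 with equal library totals and 5 of the 12 were then below 0, with 0 of them at least 2-fold lower. Cyb5a, microsomal cytochrome b5, had 36382 and 22538 reads and fell to -1.28, and Fdx1, the mitochondrial ferredoxin, had 3089 and 2181 and fell to -1.09, calls that equal library totals ended. Por, the reductase that serves all microsomal P450 enzymes, had 13020 and 10486 reads, for a log2 ratio of -0.90. The epoxide hydrolases, which act on products of the epoxygenases, split. Ephx2, the soluble enzyme, had 17748 and 7727 reads and fell to -1.78, whereas Ephx1, the microsomal enzyme, had 1138 and 4987 and rose to 1.55. Ephx3 had 16 and 21 reads, and Ephx4 had 2 and 30, with an interval of 1.34 to 6.43 for its log2 ratio.

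Of the receptors and factors known to control these genes, 6 were kept and none passed 2-fold, with a median of -0.02, but with equal library totals 2 of the 6 were at least 2-fold higher and the median was 0.40. Hnf4a, a hepatocyte and proximal tubule factor, was closest, with 38137 and 28756 reads, for a log2 ratio of -0.99. Ppara had 4108 and 5471 reads and -0.17, and Nr1i2, the pregnane X receptor, had 127 and 360 reads and 0.91.

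Markers of the cells in the kidney moved as well. The 14 proximal tubule markers held 1.47% of the control and 1.13% of the CKO reads, none was at 0, and 3 fell (Slc22a6, Slc34a1 and Miox). Their median log2 ratio was -0.55, from -1.62 for Slc22a6 to 0.41 for Slc5a12. It was -0.13 with equal library totals and turned to 0.04 with the values as deposited. Under each of these, 1 of the 14 was at least 2-fold lower. The median of the 16 markers of other nephron segments and vessels was -0.14, and none of them passed 2-fold, but with equal library totals it was 0.28 and 1 was higher. Of 10 macrophage markers 9 rose, and Csf1r was at 0.51. Before scaling, all 10 summed to 6500 control and 50462 CKO reads. Of 6 hepatocyte genes 4 were in the table, with a median of -0.95. It was -0.56 with equal library totals and turned to 0.19 with the values as deposited. Alb had 117 and 121 reads, Ttr 2889 and 860, Apoa2 17 and 9, and Serpina1c, the only 1 of the 4 above 0, had 90 and 254 reads, for a log2 ratio of 0.90. Of 10 adrenal genes 6 were in the table, and Star had 37 and 70 reads. The part of these shifts in the cytochrome P450 values was not tested. The 4 Y-linked genes in the table, chosen after their values were seen, had log2 ratios from -0.04 for Ddx3y to 0.38 for Uty. Ddx3y had 1920 and 2805 reads and Uty 950 and 1849, so both libraries held RNA of male mice.

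**Figure D5:**
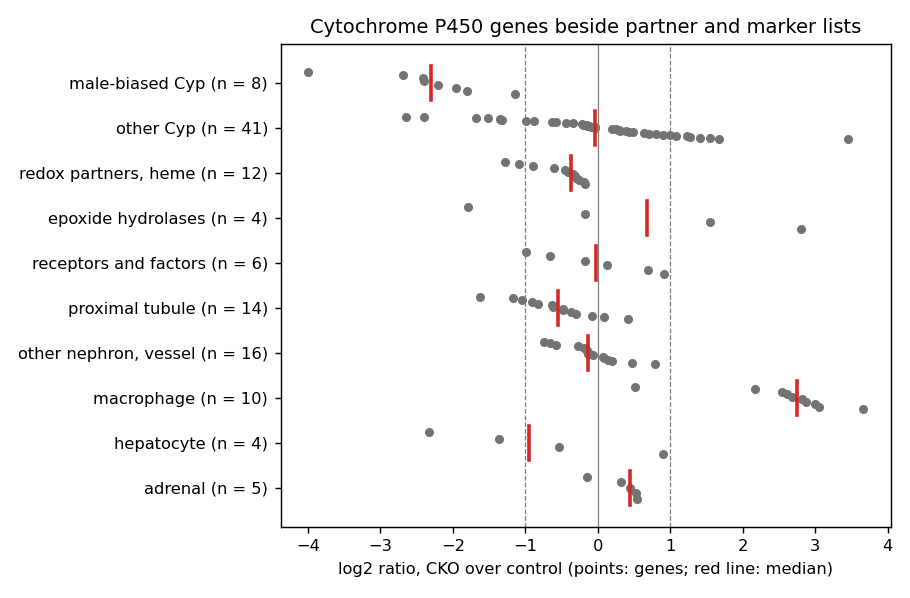
Log2 ratio of CKO over control of each kept gene (grey points) and the median of its list (red line) for cytochrome P450 genes, their partners and cell type markers; dashed lines mark 2-fold. The male-biased cytochrome P450 genes have a median of -2.30, beside -0.04 for the other cytochrome P450 genes, -0.55 for proximal tubule markers and 2.74 for macrophage markers.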

How the data were processed

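Poly(A) RNA of whole kidney was sequenced with a stranded kit in 2 libraries. Per the submitters' processing notes, the tools were STAR 2.7.3a on mm10, HTSeq, DESeq2, Cufflinks 2.2.1, FastQC and edgeR. The deposited values, whole numbers that the authors made from HTSeq counts and call normalized, were treated as a score. Their lowest values were 35 and 51. Subtracting 34 and 50 gave reads, which is an inference. CKO reads were scaled by 0.667, the median gene ratio. Log2 ratios used a pseudocount of 1, a minimum of 10 scaled reads in 1 library and a 2-fold threshold. No test was made with 1 library per group. Median depth was 284 and 513.5 reads per gene.

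The genes and lists were chosen with earlier results of these data known. Genes named are those at least 2-fold different, the 10 with the most reads, and examples of fixed lists by rank or level. Others, and the bands of read level, were chosen after their values were seen. All 51 genes matched RefSeq (GRCm38.p6) by Gene ID and GENCODE M21 transcripts. Scripts were tested on simulated data. Python 3.11.15, numpy 2.4.6, pandas 2.3.3, scipy 1.17.1, Biopython 1.88 and matplotlib 3.10.9 were used. The alternatives were other pseudocounts, filters, thresholds and scalings. A gene of 1 list is not reported here.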

Additional observations from a re-analysis of the deposited data

How the results depend on the processing

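No paired analysis was possible because there was only 1 library per group. At 1.5-fold, 12 cytochrome P450 genes were higher and 18 lower, beside 3801 and 2423 of all 17469 genes kept. At 4-fold, 1 cytochrome P450 gene was higher and 7 lower, beside 749 and 166 of all genes kept. With a pseudocount of 0.1, 16 cytochrome P450 genes were at least 2-fold lower, beside 969 of all genes kept. Equal library totals moved the median of all genes to 0.44. The medians were then 0.032 for Cyp4, 0.85 for other families and -1.88 for the male-biased list. Of the 49 genes 12 were then higher, beside 3870 of 17682 genes kept. The values as deposited moved the median of all genes to 0.57. The medians were then 0.47 for Cyp2, 0.25 for Cyp4, 0.78 for other families and -1.70 for the male-biased list. Of 51 genes 11 were higher and 9 lower, beside 3574 and 131 of 20002 genes. Cyp4f15 turned to 0.090, and the summed shares were 1.10% and 0.499%. Scaling the deposited values by the median gene ratio gave a median of 0.21 for other families and 3 of 51 genes higher, beside 1196 of 20002. Under it Cyp26b1, Cyp2c38, Cyp3a13 and Cyp4f16 no longer passed 2-fold, at 0.89, 0.48, 0.88 and 0.96. Chosen after seeing the data, leaving out Cyp4b1 gave summed shares of 0.757% and 0.415%, and leaving out Cyp2e1 and Cyp2j5 as well gave 0.341% and 0.261%. The cause of these moves was not tested. Of 24 genes named for size of difference or level, 22 kept their sign in every alternative, and Cyp4a10 and Cyp4f15 did not. Medians of Cyp genes thus depend on the scaling. Genes under about 50 reads have wide counting intervals, and the spread between mice is unknown.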
